A study of Mus musculus with 52 samples.

Results

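The regions described here are stretches of open chromatin found in the endothelial cells (ECs) of the WT anterior pituitary (AP) and in neither of the other WT tissues, the cerebellum (CB) and the posterior pituitary (PP). A region was counted when peaks of the assay for transposase-accessible chromatin (ATAC-seq) overlapped by at least 1 bp in both WT AP libraries and no peak of the 4 WT CB and WT PP libraries overlapped it. Peaks were kept where both the fold enrichment and the −log10 q exceeded 2, outside the mitochondrial chromosome. There were 10096 such AP-alone regions, or 30.8% of the 32728 regions with a peak in both WT AP libraries and 15.1% of the 66740 regions with a peak in any of the 12 ATAC-seq libraries of the study. Without WT AP replicate 1 the rule gave 20284 regions.

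The study compared ECs that lie behind the blood-brain barrier (CB) with the permeable capillary ECs of both lobes of the pituitary, in WT mice and in mice whose ECs carry stabilized beta-catenin. ECs were taken as the GFP-positive fraction of sorted tissue from adult male mice that carry Tie2-GFP, in which Tie2 regulatory sequences drive GFP in ECs. WT mice had this transgene alone, and stabilized mice had it with Pdgfb-CreER, which makes Cre in ECs and needs 4-hydroxytamoxifen (4HT) to act, and with 1 copy of Ctnnb1flex3, the allele from which Cre makes a beta-catenin that is not degraded. The stabilized mice received 4HT after birth, so that the genotypes differ also in the Cre transgene and in 4HT. Each genotype and tissue had 2 ATAC-seq libraries of nuclei prepared from sorted GFP-positive cells, and 2 RNA-seq libraries each of GFP-positive and GFP-negative cells; the pituitaries of many mice were pooled for each replicate. Nothing in the labels says more of how replicates differ, so the p-values measure the spread between these pools.

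Several features of the libraries bear on all that follows. WT AP replicate 2 gave 45040 kept peaks and replicate 1 gave 36860, whereas the 4 WT CB and WT PP libraries gave 20634 to 26394, and the 6 stabilized libraries gave 28926 to 42621. The RNA-seq libraries held 1.22e+07 to 3.75e+07 estimated reads. The 10 endothelial markers summed to 3208 and 4965 TPM (transcript abundance scaled by length to 1 total in every library) in WT AP GFP-positive cells and to 30.1 and 33.8 TPM in WT AP GFP-negative cells, so that the endothelial label of the sort held. The 20 pituitary endocrine markers nevertheless summed to 7252 and 4713 TPM in WT AP GFP-positive cells, against 42.7 and 37.3 TPM in WT CB GFP-positive cells. The growth hormone gene Gh (3698 and 2852 TPM) and the prolactin gene Prl (1937 and 816 TPM) made up most of this sum, and the WT AP GFP-negative cells held 49225 and 67169 TPM of the same markers. Gh did not follow this difference, at 3600 and 4640 TPM in the GFP-negative cells, whose sum was mostly Prl (31239 and 45324 TPM). In bulk RNA, fewer cells of a type and less RNA per cell cannot be told apart. The stabilized AP RNA-seq library numbered 2 has labels that name both lobes, and it was taken as AP from its title.

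Capillary ECs of the brain are sealed by tight junctions and carry transporters, and Wnt signals that act through beta-catenin and the DNA-binding factors LEF1 and TCF7 maintain this state. Capillaries of the endocrine AP are fenestrated: their ECs have pores bridged by diaphragms made of PLVAP, through which hormones reach the blood. Open chromatin away from start sites often holds enhancers, and in ECs of most organs factors of the ETS family, such as ERG and FLI1, bind such regions at a GGAA core.

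Windows that reach 100 bp to each side of the strongest summit show what such regions hold. The sequences below are the plus strand of GRCm38 (RefSeq GRCm38.p6), and capitals mark matches on either strand to the ETS motif AGGAAGT, the AP-1 motif TGANTCA and the TCF/LEF motifs TTCAAAG or ATCAAAG. They were chosen as the strongest AP-alone region, the strongest others with an ETS match, the strongest one whose nearest gene had higher RNA in the WT AP than in the WT CB, and, from those near genes with higher RNA in WT AP ECs than in both other tissues, some that hold an ETS or AP-1 match. In that last set the windows of the strongest regions near Chrm3, Lbp and Trp53i11 hold none of the marked motifs and are not shown.
Bbs9, intron, strongest region, chr9:22800786-22800986: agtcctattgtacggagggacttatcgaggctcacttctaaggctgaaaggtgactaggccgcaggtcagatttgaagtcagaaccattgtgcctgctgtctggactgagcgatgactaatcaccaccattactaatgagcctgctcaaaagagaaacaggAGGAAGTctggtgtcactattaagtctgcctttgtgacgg
Gm13691, intergenic, chr2:84020044-84020244: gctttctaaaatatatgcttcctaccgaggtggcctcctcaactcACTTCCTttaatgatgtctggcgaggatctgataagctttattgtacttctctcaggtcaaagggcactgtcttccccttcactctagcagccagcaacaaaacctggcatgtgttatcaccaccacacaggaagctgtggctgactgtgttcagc
Dglucy, promoter, chr12:100785469-100785669: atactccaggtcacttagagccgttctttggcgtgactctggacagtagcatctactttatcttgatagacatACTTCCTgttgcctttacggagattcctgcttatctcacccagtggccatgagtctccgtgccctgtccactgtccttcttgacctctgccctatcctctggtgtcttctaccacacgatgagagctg
Rarb, intergenic, chr14:17172815-17173015: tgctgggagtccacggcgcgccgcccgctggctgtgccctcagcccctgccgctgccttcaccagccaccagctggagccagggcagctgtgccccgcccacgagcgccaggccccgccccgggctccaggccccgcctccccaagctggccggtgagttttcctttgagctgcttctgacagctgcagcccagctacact
Mrc1, intron, chr2:14232966-14233166: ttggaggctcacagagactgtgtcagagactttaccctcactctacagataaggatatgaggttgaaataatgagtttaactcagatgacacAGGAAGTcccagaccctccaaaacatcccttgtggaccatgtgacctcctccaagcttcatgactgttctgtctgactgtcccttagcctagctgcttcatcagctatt
Krt80, intergenic, chr15:101388286-101388486: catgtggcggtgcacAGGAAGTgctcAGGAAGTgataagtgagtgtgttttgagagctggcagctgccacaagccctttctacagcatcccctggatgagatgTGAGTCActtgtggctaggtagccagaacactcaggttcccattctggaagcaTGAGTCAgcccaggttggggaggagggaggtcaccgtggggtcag
Kcnj8, intergenic, chr6:142559052-142559252: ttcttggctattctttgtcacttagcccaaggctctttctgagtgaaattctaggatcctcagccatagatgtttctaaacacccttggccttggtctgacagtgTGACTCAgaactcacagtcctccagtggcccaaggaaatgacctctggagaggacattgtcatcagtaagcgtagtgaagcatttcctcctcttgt
Rasd1, intron, chr11:59991485-59991685: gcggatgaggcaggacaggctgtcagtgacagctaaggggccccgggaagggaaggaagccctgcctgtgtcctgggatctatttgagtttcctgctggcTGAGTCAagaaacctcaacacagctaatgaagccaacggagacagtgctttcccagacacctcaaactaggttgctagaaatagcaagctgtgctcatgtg
Pdia5, intron, chr16:35470027-35470227: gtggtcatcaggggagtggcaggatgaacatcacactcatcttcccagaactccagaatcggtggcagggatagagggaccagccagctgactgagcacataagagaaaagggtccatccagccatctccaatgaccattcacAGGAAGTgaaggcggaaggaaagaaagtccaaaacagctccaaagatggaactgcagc
The windows near Bbs9, Gm13691, Dglucy, Mrc1 and Pdia5 each hold 1 ETS match. The windows near Kcnj8 and Rasd1 each hold 1 AP-1 match, and the one near Krt80 holds 2 matches of each. The window near Rarb holds none of these motifs.

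The AP-alone regions were weaker than the other peaks of the same libraries. The median fold enrichment, which is the number of fragments at the summit over the local background of that library, was 4.59 in replicate 1 and 5.27 in replicate 2. Averaged over both libraries it had a median of 5.04 and ran from 2.04 to 18.2, against a median of 10.0 for the other 22632 AP regions, 8.64 for the 1256 regions shared by both WT lobes and absent from the WT CB, and 12.5 for the 14122 regions found in all 6 WT libraries. The 2202 regions of WT CB ECs alone were equally weak (5.15). The regions were chosen by these peaks, so that their strength and their absence from the other WT tissues are a description. The weakest 1% of the AP-alone regions had a mean fold enrichment of 2.04 to 2.48. Just outside the rule lay 2952 AP regions with a peak in 1 of the 4 WT CB and WT PP libraries, whose median was 5.70 in the WT AP and 3.72 in that other library. Of the AP-alone regions 141 (1.4%) overlapped a peak of those 4 libraries that had been deposited but was under the thresholds. Few such peaks had been deposited, at 1.92% to 2.66% of the entries of each of these libraries. The overlap therefore says little of weaker signal in the WT CB and WT PP.

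Most AP-alone regions lay far from start sites. Of the 10096, 1006 (9.96%) were promoters, within 1 kb of the start site of a protein-coding gene, whereas 50.4% of the other AP regions were. A further 4393 (43.5%) lay in introns, 4112 (40.7%) between genes and 585 (5.79%) in exons. The median distance to a start site was 21853 bp, against 924.5 bp for the other AP regions and 26618.5 bp for the regions of WT CB ECs alone, of which 5.09% were promoters. Thus both tissue-restricted sets were distal, and the regions of both WT lobes lay between them and the shared regions, with 23.5% promoters and a median of 14342.5 bp.

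**Figure D1:**
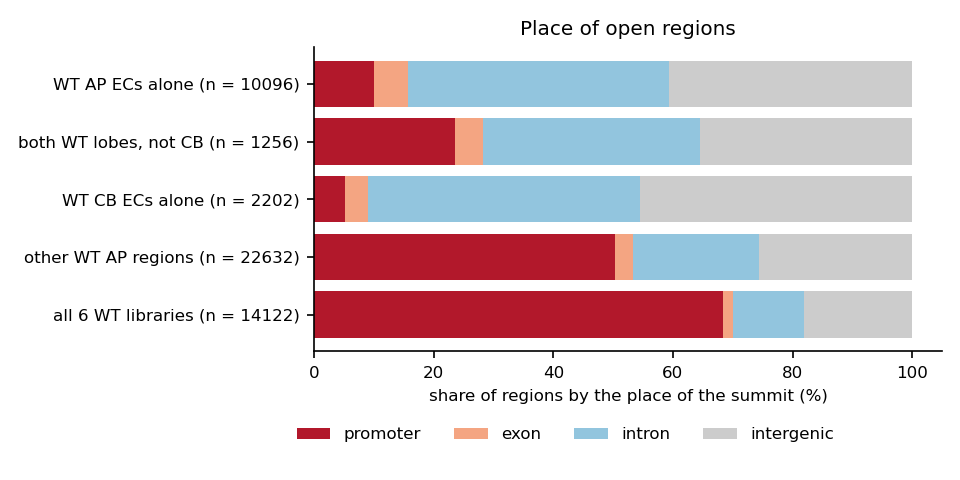
Percent of regions (x axis) that lie in promoters (within 1 kb of a protein-coding start site), exons, introns and between genes, for the AP-alone regions and the sets compared with them. Promoters make up 9.96% of the AP-alone regions and 68.4% of the regions found in all 6 WT libraries.

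Their base composition differed too. The windows had a median GC content of 51.7%, against 60.2% for the other AP regions and 49.8% for the regions of WT CB ECs alone, and a median of 3 CpG dinucleotides against 10. The regions were 500 bp wide at the median (200 to 1958 bp), compared with 852 bp for the other AP regions. A summit fell in repeat sequence in 8.33% of the AP-alone regions, and repeats made up 9.94% of the bases of the windows, although they make up 35.3% of the genome. These shares were 7.37% and 7.93% for the other AP regions and 7.32% and 8.27% for the regions of both WT lobes. They were 11.7% and 12.8% for the regions of WT CB ECs alone. Outside promoters the summits in repeats were 8.55% for the AP-alone regions and 10.2% for the other AP regions. Every autosome and the X chromosome had a similar part of its AP regions in the set (27.4% to 34.0%), and the Y chromosome had 7 of 95 (7.37%).

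Strength, place and width went together. In the weakest quartile of the AP-alone regions 14.5% were promoters and the median width was 385 bp, whereas in the strongest quartile 6.38% were promoters and the median width was 673.5 bp. The 10 strongest AP-alone regions show the far end of this range. The strongest was in an intron of Bbs9 (chr9:22800318-22801279), 165221 bp downstream of the nearest start site of a transcript of that gene. Its fold enrichment was 17.5 and 18.9 in the WT AP libraries. The next lay over 100 kb upstream of Rarb (chr14:17172301-17173234), the gene of retinoic acid receptor beta, at 16.1 and 18.8. Others lay between genes near Rbms1 (chr2:61061927-61062846, 17.2 and 17.6), Gm13691 (chr2:84019624-84020461, 17.3 and 17.1) and Hmgn3 (chr9:83246858-83247624, 17.2 and 16.8), at the promoter of Dglucy (chr12:100785273-100785956, 14.9 and 18.7), and in an intron of Crispld2 (chr8:120004032-120004843, 14.6 and 17.6). All of these values lay far above 6.62, the upper quartile of the mean fold enrichment of the AP-alone regions.

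The motif that differed most between the AP-alone regions and those of WT CB ECs alone was that of TCF/LEF. A motif was searched by its exact letters on both strands, and a match is a description of the window and not evidence of binding. The ETS motif AGGAAGT was in 18.1% of the AP-alone windows, 12.0% of the other AP windows, 14.5% of the windows of WT CB ECs alone and 16.8% of those of both WT lobes. The TCF/LEF motifs were in 4.97% of the AP-alone windows and in 27.9% of the windows of WT CB ECs alone. Among regions of 45 to 50% GC these were 6.54% and 30.1%. The SOX motif CCATTGT (3.22% and 8.22%) and the FOX motifs TGTTTAC or TGTTTAT (7.99% and 15.9%) were also in fewer AP-alone windows than windows of WT CB ECs alone, as were the GATA motifs AGATAA or TGATAA (13.2% and 18.3%). The GATA motifs were in fewer of the other AP windows (7.29%) and of the windows of both WT lobes (11.2%). Away from promoters they were in 13.9% of the AP-alone windows and 11.5% of the other AP windows.

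E-boxes and nuclear receptor motifs were found in more AP-alone windows than in both the other AP windows and the windows of WT CB ECs alone. One of the E-boxes CAGCTG or CACGTG or CAGATG, the sites of basic helix-loop-helix factors, was in 36.8% of the AP-alone windows, 28.0% of the other AP windows and 27.3% of the windows of WT CB ECs alone. The letters CAGCTG (19.3%, 14.5% and 14.6%) and CAGATG (17.9%, 9.86% and 11.9%) accounted for this, and CACGTG did not follow (4.43%, 6.81% and 3.0%). The regions of both WT lobes had nearly the same E-box share as the AP-alone regions, at 35.8%, with CAGCTG in 18.7% and CAGATG in 16.4%. The nuclear receptor motif AGGTCA was in 19.6%, 11.8% and 16.6%, and in 16.9% of the windows of both WT lobes. The longer NR5A motif CAAGGTCA, which contains those letters and is the site of the gonadotroph factor NR5A1, was in 2.46%, 1.02% and 1.54%. The motif TATNCAT of the endocrine factor POU1F1 was in 3.88%, 2.06% and 3.59%. In the windows of both WT lobes the NR5A motif was in 1.99% and the POU1F1 motif in 2.15%. Other motifs of pituitary factors were in fewer AP-alone windows than windows of WT CB ECs alone. In the same order the PITX motif TAATCC was in 3.51%, 2.77% and 4.45%, and the LHX motif TAATTA in 2.36%, 1.22% and 2.91%. The SP motif CCCGCCC of CpG-rich promoters was in 7.05% of the AP-alone windows and 31.1% of the other AP windows.

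Part of these differences went with place. Away from promoters, the ETS motif was in 18.7% of the 9090 AP-alone windows and in 17.6% of the 11236 other AP windows, and the AP-1 motif was in 12.1% and 15.5%. E-boxes (37.6% and 33.6%) and the nuclear receptor motif (20.4% and 17.3%) were more common in the AP-alone windows. Among the 2090 distal regions of WT CB ECs alone, the ETS motif was in 14.7%, E-boxes were in 27.3% and the TCF/LEF motifs were in 28.3%. Among the AP-alone promoters the SP motif was in 28.4%, against 50.6% of the other AP promoters.

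The position of a match within the region gives another view. In the AP-alone regions the ETS motif occurred 1.30 times per kb within 25 bp of the summit and 0.27 times per kb at 300 to 500 bp from it, a ratio of 4.77. E-boxes (2.49 and 1.54 per kb) and the nuclear receptor motif (1.2 and 0.71 per kb) were also denser at the summit. The TCF/LEF motifs were not: they occurred 0.25 times per kb at the summit and 0.41 times per kb at 300 to 500 bp, whereas in the regions of WT CB ECs alone they occurred 1.81 and 0.52 times per kb. The GATA motifs were likewise sparser at the summits of the AP-alone regions (0.68 and 1.04 per kb).

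**Figure D2:**
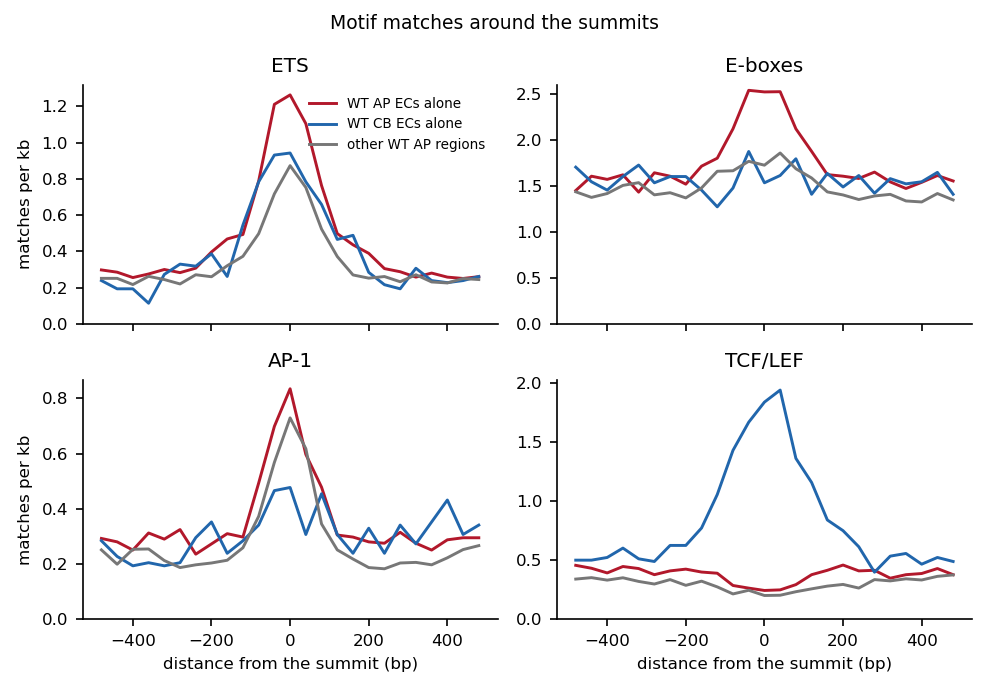
Matches of the ETS, E-box, AP-1 and TCF/LEF motifs per kb of sequence (y axis) by distance from the summit in bp (x axis), in the AP-alone regions, the other AP regions and the regions of WT CB ECs alone. The ETS motif peaks at the summit of the AP-alone regions (1.30 per kb within 25 bp), and of the 3 sets the TCF/LEF motifs peak only in the regions of WT CB ECs alone (1.81 per kb within 25 bp).

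The AP-1 motif, the site of FOS and JUN, depended on the library. It was in 11.5% of the AP-alone windows, but in 7.39% of all kept peaks of WT AP replicate 1 and in 15% of those of replicate 2. Among peaks private to one WT AP library and absent from the 4 WT CB and WT PP libraries, a set chosen after the values were seen, it was in 2.88% of the 2643 peaks of replicate 1 and in 29.0% of the 9813 peaks of replicate 2. Within the AP-alone regions it went with the ratio of the libraries, from 3.62% in the tertile with the lowest ratio of replicate 2 to replicate 1 to 22.6% in the tertile with the highest. The ETS motif was at 17.8% and 18.3% in these tertiles. When membership rested on replicate 2 alone the AP-1 motif was in 20.1% of the windows, and on replicate 1 alone in 7.53%. It was in 24.2% of the windows of both WT lobes, above the AP-alone share. In the stabilized AP libraries it was in 12.2% and 12.9% of kept peaks, and in the WT CB libraries in 6.4% and 7.14%. Fos RNA was at 790 and 1238 TPM in WT AP ECs and at 309 and 12.2 TPM in WT CB ECs, and Jun RNA at 416 and 573 TPM against 232 and 22.3 TPM. Fos did not pass the test between these tissues (edgeR, adjusted p = 0.0879). The part of the library in the AP-1 share was not tested.

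Among the factors that read these motifs, RNA of ETS and E-box factors was present in the ECs of both tissues, and RNA of 2 of the 4 TCF/LEF factors, LEF1 and TCF7, was largely confined to the WT CB of these 2 tissues. Ets1 was at 156 and 223 TPM in WT AP ECs and at 166 and 166 TPM in WT CB ECs. Elk3 was at 183 and 254 TPM against 124 and 100.98 TPM, and Erg at 23.2 and 22.6 TPM against 8.94 and 13.2 TPM. Tcf4, an E-box factor, was at 240 and 213 TPM against 165 and 167 TPM. In contrast, Lef1 was at 0 and 4.27 TPM in WT AP ECs and at 156 and 120 TPM in WT CB ECs, a log2 fold change of −7.11 ± 1.39 (SE; adjusted p = 0.00799). Tcf7 was at 0 and 0.203 TPM against 26.2 and 23.9 TPM (adjusted p = 0.000391). The other TCF/LEF factors had RNA in both tissues: Tcf7l1 was at 10.2 and 19.8 TPM in WT AP ECs and at 3.71 and 4.80 TPM in WT CB ECs, and Tcf7l2 at 5.27 and 22.0 TPM against 5.21 and 7.12 TPM, with adjusted p = 0.222 and 0.464 by edgeR. The call of Lef1 was lost in a fit of only the groups compared, at a log2 fold change of −7.13. In stabilized AP ECs Lef1 was at 10.8 and 27.3 TPM and Tcf7 at 2.65 and 3.54 TPM.

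The fate of the AP-alone regions after beta-catenin stabilization was read from the stabilized libraries, which the rule did not use. With 2 libraries against 2, an exact permutation test cannot give a p below 0.333, so presence in both stabilized libraries is given as a share and not tested. Of the 10096 regions, 7470 (74.0%) had a peak in stabilized AP replicate 1 and 8353 (82.7%) in replicate 2, and 7095 (70.3%) had one in both. Over all 32728 AP regions 87.9% had a peak in both, and over the other AP regions 95.7%. There were 1633 AP-alone regions (16.2%) with a peak in 1 stabilized AP library and 1368 (13.5%) with a peak in neither.

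Weak regions were those that dropped out, in both sets. Among AP-alone regions with a mean fold enrichment of 3 to 4 (2009 regions), 44.6% had a peak in both stabilized AP libraries, at 5 to 6 (1812) 77.8% did, and at 8 to 10 (841) 96.1% did. The 14 regions over 15 all had one. The other AP regions of the same strength were more often present, at 68.4%, 94.1% and 99.6% in those ranges. In each range of fold enrichment up to 15 the share of the AP-alone regions was the lower one. Among regions with a peak in both stabilized AP libraries, a choice that leaves out those that dropped out, the AP-alone ones had median fold enrichments of 5.02 and 6.07 in the WT AP libraries and 5.36 and 6.5 in the stabilized ones. The other AP regions chosen in the same way were at 9.44 and 11.3 in the WT and at 11.4 and 12.4 in the stabilized libraries. The strongest region, in Bbs9, was at 17.5 and 18.9 in the WT AP and at 16.9 and 20.4 in the stabilized AP.

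**Figure D3:**
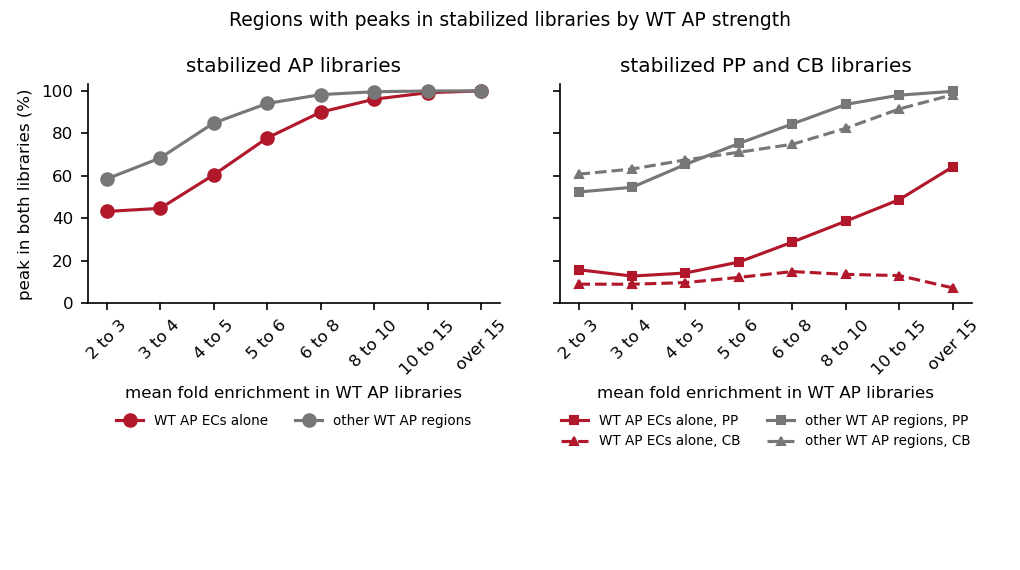
Percent of regions with a peak in both stabilized libraries of a tissue (y axis) by mean fold enrichment in the WT AP libraries (x axis), for the AP-alone regions and the other AP regions. In the stabilized AP the AP-alone regions run from 43.2% at a fold of 2 to 3 (470 regions) to 99.1% at 10 to 15 (463 regions), and in the stabilized CB they stay between 7.14% and 14.9% at every strength.

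A minority of the AP-alone regions had peaks in the stabilized libraries of the other tissues. In the stabilized CB 1792 (17.7%) had a peak in replicate 1, 1435 (14.2%) in replicate 2 and 1154 (11.4%) in both, against 61.5% of all AP regions. In the stabilized PP the counts were 2484 (24.6%) and 4495 (44.5%), with 2170 (21.5%) in both, against 68.0% of all AP regions. These 2 stabilized PP libraries thus differed more than those of any other tissue. In the stabilized PP the share in both libraries went up with strength, from 12.7% at a fold of 3 to 4 to 48.8% at 10 to 15, while in the stabilized CB it was 8.91% and 13.0%. The regions were weak where they appeared, with median fold enrichments of 3.90 in both stabilized CB libraries and 4.26 and 3.79 in the stabilized PP libraries. Some 516 regions (5.11%) had a peak in all 6 stabilized libraries, 1105 (10.9%) in none, and 2556 (25.3%) in both stabilized AP libraries and no other stabilized library. Of all AP regions 8.63% showed this last pattern. The stabilized CB and PP libraries also had more kept peaks than the WT ones, and the part of this in these shares was not tested.

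The share of windows with a motif was also set beside fate. The ETS motif was in 19.0% of the AP-alone windows with a peak in both stabilized AP libraries and in 16.6% of those with a peak in neither, and E-boxes were in 37.8% and 32.7%. The AP-1 motif was in 13.3% and 6.21%. These groups also differed in strength, with median fold enrichments of 5.66 and 3.87, and the AP-1 share went with strength, from 6.4% in the 2531 weakest AP-alone regions to 17.4% in the 2524 strongest. The part of strength, and of the replicate difference in AP-1 given above, in the gap between the groups was not tested. The GATA motifs went the other way, at 12.8% and 16.4%.

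To relate the regions to RNA, each was assigned to the protein-coding gene with the nearest start site within 100 kb. This took in 8624 regions (85.4%) and 5141 genes, 23.4% of the 21951 protein-coding genes. A single AP-alone region was assigned to 3284 of these genes, 2 regions to 1058, 3 or 4 to 617, 5 to 9 to 166, and 10 or more to 16. RNA is independent of the rule, and was tested with edgeR over all genes. Genes that changed at least 2-fold with an adjusted p under 0.05 were called higher or lower. Log2 fold changes come from estimated counts and TPM is scaled by transcript length, so they can differ for one gene.

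Genes with AP-alone regions nearby were more often higher in WT AP ECs than in WT CB ECs, and the share grew with the number of regions. Of the 4255 such genes tested 265 were higher (6.23%), against 2.25% of all 17900 genes tested, and 193 were lower (4.54%), against 3.0% of all genes. Genes with AP-alone regions are protein-coding by construction, and of all protein-coding genes tested 2.65% were higher and 3.64% lower. Their median log2 fold change was 0.14, and that of all genes was 0.00. With 1 region 3.27% were higher (2626 genes), with 2 regions 7.02% (898), with 3 or 4 regions 14.6% (555), and with 5 or more 19.9% (176). The share that was lower stayed at 4.57%, 4.01%, 5.05% and 5.11%. Genes that had other AP regions but no AP-alone region showed another pattern: with 1, 2, 3 or 4, and 5 or more such regions, 0.795%, 2.96%, 3.84% and 2.61% were higher and 2.47%, 4.44%, 9.02% and 11.3% were lower. The share varied less with distance: 6.37% of the genes with an AP-alone region within 1 kb, 7.39% of those at 1 to 20 kb and 4.11% of those at 20 to 100 kb were higher. Leaving out any single WT AP or WT CB library lowered the counts of both higher and lower genes, among these genes and among all genes tested.

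The comparison of the WT AP with the WT PP uses the same WT AP libraries. Of the genes with AP-alone regions 30 were higher (0.705%), against 0.341% of all genes, and 46 were lower (1.08%), against 0.654% of all genes. Of all protein-coding genes 0.398% were higher and 0.796% lower. With 1, 2, 3 or 4, and 5 or more regions 0.419%, 0.780%, 1.08% and 3.41% were higher, but this order rested on single libraries. Without WT AP replicate 1 the shares were 0.305%, 0.557%, 0.360% and 0.568%, without WT AP replicate 2 they were 0.305%, 0.223%, 0.180% and 0.568%, and without WT PP replicate 2 they were 0.343%, 0.668%, 0.360% and 1.14%. The class of 5 or more held 6 higher genes of 176 with all libraries and 1 without either WT AP library. The total counts also depended on single libraries: without WT AP replicate 1 there were 16 higher and 24 lower genes, without WT AP replicate 2 there were 12 and 26, without WT PP replicate 1 there were 118 and 116, and without WT PP replicate 2 there were 19 and 29. Without WT PP replicate 1 the higher genes were 2.77% of those with AP-alone regions and 2.53% of all genes tested, so that little of the excess was left, and the lower genes were 2.73% and 1.59%. WT PP replicate 1 held 3480 TPM of pituitary endocrine markers and the other WT PP library 491 TPM.

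Within the AP, genes with AP-alone regions were more often those of the EC fraction. Of 4609 such genes tested 695 were higher in GFP-positive than in GFP-negative WT AP cells (15.1%), against 5.46% of all 21324 genes tested, and 311 were lower (6.75%), against 5.87% of all genes. Of all protein-coding genes tested 6.96% were higher and 7.47% lower, so that the share of lower genes lay below this background. With 1, 2, 3 or 4, and 5 or more regions 9.31%, 17.1%, 31.7% and 43.6% were higher, and 7.47%, 7.18%, 3.81% and 2.21% were lower. Genes with other AP regions alone reached 3.17%, 8.71%, 16.3% and 25.9% higher. Of the 8624 assigned AP-alone regions 1734 (20.1%) lay near a gene higher in GFP-positive cells and 452 (5.24%) near a gene that was lower, against 17.0% and 4.92% of the other 21105 assigned AP regions. Leaving out any single library of these fractions lowered the counts of both higher and lower genes, among these genes and among all genes tested.

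In stabilized against WT AP ECs, genes with AP-alone regions did not stand out. This comparison also uses the WT AP libraries. There were 17 higher genes (0.40%), against 0.441% of all genes and 0.535% of protein-coding genes, and 0 lower genes, against 0.0168% of all genes. At an unadjusted p under 0.05 edgeR gave 199 higher (4.68%) and 44 lower (1.03%) among them, against 4.50% and 0.961% of all genes, and DESeq2 called 19 lower (0.447%), against 0.447% of all genes. The share of higher genes had no slope over the number of regions (0.305%, 0.780%, 0.360% and 0 of 176). Without stabilized replicate 1 there were 28 higher genes, and without stabilized replicate 2, the library with conflicting labels, there were 9. Among the 352 genes whose AP-alone regions all had a peak in neither stabilized AP library, 2 were higher and 0 lower.

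**Figure D4:**
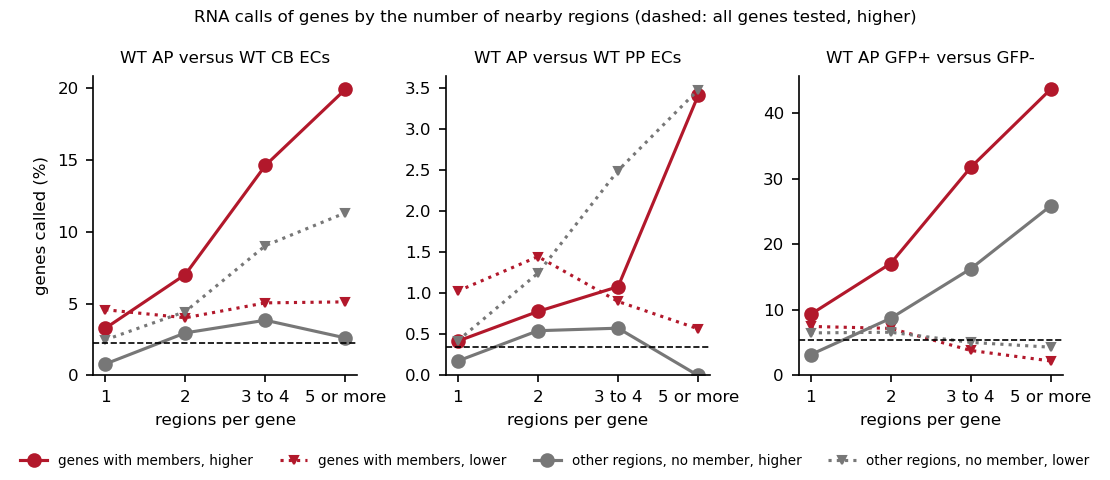
Percent of genes called higher or lower (y axis) by the number of regions assigned to the gene (x axis), in 3 RNA comparisons. Red counts AP-alone regions (members in the key), grey counts other AP regions of genes with no AP-alone region, solid lines are genes higher, dotted lines are genes lower, and the dashed line is the percent of all genes tested that were higher; the red share higher than in WT CB ECs goes from 3.27% with 1 region to 19.9% with 5 or more.

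Of the 10 genes with the most AP-alone regions, Trib1 was called between WT AP and WT CB ECs, and the other 9 were not. Tiam1, an activator of the GTPase RAC, had 16, the cAMP phosphodiesterase gene Pde4d 15, Sept9, the gene of a septin, 14, and Col4a1, the gene of a basement membrane collagen, and Sash1 12 each. Col4a1 was at 662 and 1160.3 TPM in WT AP ECs and was higher there than in GFP-negative cells (log2 fold change 5.52 ± 0.72, adjusted p = 4.98e-05). Sema6a, with 10 regions, was also higher in the GFP-positive cells (4.02 ± 0.34, adjusted p = 7.9e-07), as was Tiam1 (1.65 ± 0.41, adjusted p = 0.0128). With no filter on low counts Tiam1 was also called lower than in the WT CB (log2 fold change −1.03). Over the WT PP it was called higher by DESeq2 (1.29) and with no filter (1.28). Without WT PP replicate 1 that log2 fold change was 2.42. The pseudokinase gene Trib1, with 11 regions, was at 15.3 and 20.2 TPM in WT AP ECs and at 4.74 and 1.89 TPM in WT CB ECs, which do not overlap (2.46 ± 0.49, adjusted p = 0.00968), and this call was lost without WT AP replicate 2 (2.24) or WT CB replicate 2 (2.04). All 11 regions of Trib1 had a peak in both stabilized AP libraries.

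A total of 14 genes with an AP-alone region, at 10 TPM or more in both WT AP EC libraries, were higher there than in both WT CB and WT PP ECs, and 9 of them are described. They were 0.329% of the 4255 genes with an AP-alone region tested, and 21 of all 14576 protein-coding genes tested met the same criteria (0.144%). Kcnj8, a gene of an ATP-sensitive potassium channel that pericytes also express, was at 127 and 148 TPM in WT AP ECs, 8.91 and 6.54 TPM in WT PP ECs and 14.2 and 14.6 TPM in WT CB ECs. The log2 fold changes were 2.96 ± 0.40 over the WT CB (adjusted p = 0.000583) and 4.43 ± 0.43 over the WT PP (adjusted p = 0.000242). Both WT AP values stood far above the other 4. GFP-negative WT AP cells held 0.373 and 3.44 TPM of Kcnj8, and the summed mural markers were 189 and 224 TPM in WT AP ECs and 731 and 602 TPM in WT CB ECs. Kcnj8 is itself one of these 10 markers, and the other 9 summed to 62.3 and 75.5 TPM in WT AP ECs and to 716 and 588 TPM in WT CB ECs. Kcnj8 had 3 AP-alone regions, all with a peak in both stabilized AP libraries. The strongest (chr6:142558670-142559757), whose AP-1 match is shown above, was at a fold enrichment of 12.1 and 13.6 in the WT AP and at 14.7 and 15.4 in the stabilized AP.

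The multimerin gene Mmrn1, which platelets and lymphatic ECs express, was at 39.0 and 39.6 TPM in WT AP ECs, 3.18 and 2.29 TPM in WT PP ECs and 0.709 and 0.565 TPM in WT CB ECs. It was 5.87 ± 0.31 above the WT CB (adjusted p = 1.33e-06) and 4.02 ± 0.28 above the WT PP (adjusted p = 3.46e-05) on the log2 scale. Its promoter region was at a fold enrichment of 6.20 and 4.24 in the WT AP and at 4.42 in 1 stabilized AP library. Mrc1, the gene of the mannose receptor of macrophages and of some ECs, was at 17.5 and 17.6 TPM in WT AP ECs, at most 0.581 TPM in WT PP ECs and at most 1.28 TPM in WT CB ECs. Its log2 fold changes were 6.26 ± 1.15 (adjusted p = 0.00507) and 5.47 ± 1.11 (adjusted p = 0.0359). The summed microglia and macrophage markers, Mrc1 among them, were 31.5 and 24 TPM in WT AP ECs, so that Mrc1 was most of that sum. They were 18 and 3.64 TPM in WT CB ECs. One of the 3 regions near Mrc1, in its intron (chr2:14232596-14233391), held the ETS match shown above, at 6.04 and 6.59 in the WT AP and at 6.92 and 7.11 in the stabilized AP.

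Chrm3, the gene of a muscarinic acetylcholine receptor, was at 57.8 and 79.7 TPM in WT AP ECs, 3.48 and 4.26 TPM in WT PP ECs and at most 0.00455 TPM in WT CB ECs. It was higher than in both, with a log2 fold change of 3.64 ± 0.51 over the WT PP (adjusted p = 0.00557). The keratin gene Krt80 was at 18.5 and 20.3 TPM, against 4.03 and 2.58 TPM in WT PP ECs and at most 0.00584 TPM in WT CB ECs (2.79 ± 0.56 over the WT PP, adjusted p = 0.0388). No fold over the WT CB is given for these genes, because they were at or near 0 there. The region near Krt80 (chr15:101387805-101388641), the one with 2 ETS and 2 AP-1 matches, was at 5.88 and 8.79 in the WT AP and at 3.90 and 8.55 in the stabilized AP.

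Pdia5, a disulfide isomerase gene, was at 125 and 122 TPM in WT AP ECs, 34.2 and 23.5 TPM in WT PP ECs and 7.41 and 2.74 TPM in WT CB ECs, and Lbp, the gene of a lipopolysaccharide-binding protein, at 49.4 and 78.0 TPM, 26.0 and 16.8 TPM, and 3.79 and 1.65 TPM in the same order. Trp53i11, with 6 regions, was at 262 and 403 TPM, 146 and 54.5 TPM, and 9.20 and 17.0 TPM. For each of these genes the WT AP values lay above every WT PP value, and the WT PP values above every WT CB value. Rasd1, a gene of a RAS-like GTPase, was at 112 and 209 TPM in WT AP ECs, 53.5 and 17.1 TPM in WT PP ECs and 23.0 and 11.0 TPM in WT CB ECs, but WT AP GFP-negative cells held 100 and 113 TPM. Its region (chr11:59991248-59992117), in an intron of a neighbouring gene, was among the strongest, at 13.7 and 16.1 in the WT AP and 12.5 and 17.2 in the stabilized AP.

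Not all of these calls held under the alternatives. Mmrn1, Chrm3 and Kcnj8 kept both calls under every alternative tried. Over the WT CB the call of Mrc1 was lost without WT CB replicate 2 (log2 fold change 5.60). Over the WT PP, calls were lost for Mrc1 without either WT AP library (5.53 and 5.41), for Krt80 without any one of the 4 libraries (2.75 to 2.85), for Trp53i11 without either WT AP library (2.51 and 2.20) or WT PP replicate 2 (1.89), for Pdia5 without WT AP replicate 1 (2.20) or WT PP replicate 2 (2.29), and for Lbp without WT AP replicate 2 (1.85) or WT PP replicate 2 (1.81). In a fit of only the groups compared, the calls over the WT PP were lost for Rasd1 (2.56), Mrc1 (5.47), Trp53i11 (2.35) and Lbp (2.1). None of the 9 genes passed the test between stabilized and WT AP ECs. Kcnj8, for example, was at 77.8 and 46.1 TPM in stabilized AP ECs and Mmrn1 at 49.3 and 32.8 TPM. Of their regions, the intronic one of Chrm3 (chr13:9930669-9931264, 5.90 and 6.44 in the WT AP) had a peak in 1 stabilized AP library, whereas the promoter region of Lbp (chr2:158305840-158307262, 7.70 and 9.51) had one in both.

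**Figure D5:**
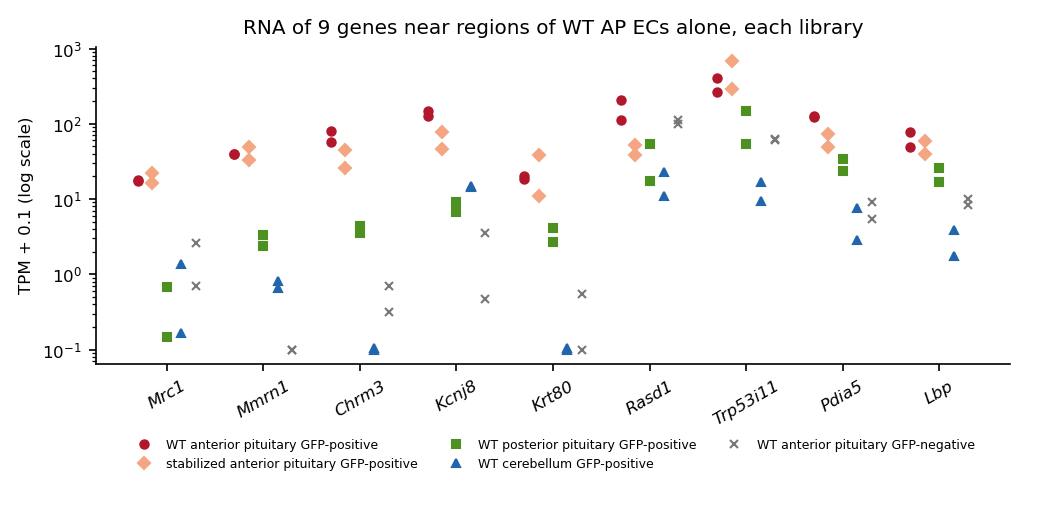
TPM plus a small constant (y axis, log scale) in each WT AP, stabilized AP, WT PP and WT CB GFP-positive library and each WT AP GFP-negative library, for 9 genes (x axis) with an AP-alone region and higher RNA in WT AP ECs than in both other WT tissues; each point is 1 library. Kcnj8 and Mmrn1 sit at 127 and 148 TPM and at 39.0 and 39.6 TPM in WT AP ECs, above every WT CB and WT PP library.

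An AP-alone region did not always go with higher RNA, and 22 genes with such a region, at 10 TPM or more in the WT CB and WT PP EC libraries, were lower in WT AP ECs than in both other tissues. They were 0.517% of the 4255 genes tested, and 51 of all protein-coding genes tested met the same criteria (0.350%). Rassf9 was at 0.225 and 0.61 TPM in WT AP ECs, 45.2 and 31.2 TPM in WT PP ECs and 61.7 and 49.6 TPM in WT CB ECs, a log2 fold change of −6.79 ± 0.50 against the WT CB (adjusted p = 5.27e-06). Its AP-alone region reached a mean fold enrichment of 10.5. Fmo2, a flavin monooxygenase gene, was at 0.646 and 0.0287 TPM, 136 and 539 TPM, and 145 and 71.2 TPM in that order. The caveolin gene Cav1, with 2 regions, was −3.11 ± 0.31 against the WT CB (adjusted p = 5e-05) and −3.42 ± 0.32 against the WT PP (adjusted p = 0.000151). Ltbp4, a gene of a TGF-beta binding matrix protein, was at 6.15 and 25.0 TPM, 107 and 163 TPM, and 123 and 199.9 TPM in the same order, and Gcnt2 at 2.54 and 1.90 TPM, 78.5 and 32.7 TPM, and 33.7 and 18.5 TPM. Both calls of Fmo2 were lost in a fit of only the groups compared, at log2 fold changes of −5.33 against the WT CB and −6.99 against the WT PP.

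Few of the strongest regions lay beside genes with such a call. Of the genes with the start sites nearest to the 10 strongest, Rarb, over 100 kb from its region, was at 29.8 and 48.0 TPM in WT AP ECs, 27.5 and 6.65 TPM in WT PP ECs and 0 and 0.616 TPM in WT CB ECs, and was higher than in the WT CB (adjusted p = 0.00238). Of the other 9, 4 were not tested and 5 were not called in either WT comparison. Among these 5, Rbms1 was called higher than in the WT CB by DESeq2 (log2 fold change 1.0), and Hmgn3 higher than in the WT PP by DESeq2 (2.59), with no filter on low counts (2.58) and without WT PP replicate 1 (4.57). All 10 regions had a peak in both stabilized AP libraries and none had one in both stabilized CB libraries.

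Lists of genes show which roles had AP-alone regions nearby. Of 20 genes of permeable capillary ECs, 7 were higher and 3 lower in WT AP than in WT CB ECs, and 15 (75.0%) had an AP-alone region, with 37 regions in all, against 23.4% of protein-coding genes. Of those 15 genes 6 were higher and 1 was lower than in the WT CB, and 11 were higher in GFP-positive than in GFP-negative cells. Of the whole list of 20 genes 13 were higher and 1 lower in GFP-positive cells. Over all genes tested 5.46% were higher in GFP-positive cells, and 2.25% were higher and 3.0% lower than in the WT CB. Plvap, the diaphragm gene, was at 845 and 1028 TPM in WT AP ECs, 1159.7 and 1112 TPM in WT PP ECs and 0 and 10.7 TPM in WT CB ECs (7.43 ± 1.85, adjusted p = 0.0342), with 1 region. Gpihbp1, which brings lipoprotein lipase to the capillary wall, was at 92.2 and 122 TPM, 417 and 280.2 TPM, and 0 and 1.21 TPM. Ehd4, with 6 regions, was at 199.8 and 429 TPM, 250.02 and 254 TPM, and 32.7 and 32.3 TPM (3.59 ± 0.27, adjusted p = 5.54e-06). The phospholipid phosphatase genes Plpp1 (6.07 ± 0.53, adjusted p = 1.76e-05) and Plpp3 (4.15 ± 0.40, adjusted p = 3.57e-05) and the fatty acid binding protein gene Fabp4 (8.15 ± 1.21, adjusted p = 0.00113) were the others. For Plvap, Gpihbp1 and Ehd4 the WT PP values, in a tissue where the regions had no peak, were also far above the WT CB values, and none of the 6 passed the edgeR test between the lobes. Of these, Gpihbp1 was called lower in the WT AP than in the WT PP with no filter on low counts (−1.44), and Plpp3 by DESeq2 (−1.03) and with no filter (−1.02). The VEGF receptor gene Kdr had the most regions of this list, 8, and was 0.96 ± 0.32 against the WT CB (adjusted p = 0.129). Strong regions also lay near genes of this list with little RNA. The region near the scavenger receptor gene Stab2 was at a fold enrichment of 11.5 and 11.6, and Stab2 was listed at 0 TPM in all 6 WT EC libraries, while that near Lyve1, the gene of a hyaluronan receptor, was at 9.14 and 14.1, and Lyve1 was at 0 and 1.04 TPM in WT AP ECs. The call of Plvap was lost without either WT AP library (7.58 and 7.29) and, in a fit of only the groups compared, so were those of Plvap (7.42) and Gpihbp1 (6.56).

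Of 21 genes of blood-brain barrier ECs 17 were lower and 0 higher in WT AP than in WT CB ECs, and 9 (42.9%) had an AP-alone region, with 15 regions. Of these 9 genes 6 were among the lower ones, and over all genes tested 3.0% were lower. The monocarboxylate transporter gene Slc16a1, with 5 regions, was at 7.86 and 13.6 TPM in WT AP ECs and at 165 and 309 TPM in WT CB ECs (−4.51 ± 0.61, adjusted p = 0.000526). The efflux pump gene Abcb1a was at 186 and 173 TPM against 1299 and 924 TPM (−4.14 ± 0.38, adjusted p = 2.99e-05), and the claudin gene Cldn5 at 23.4 and 21.9 TPM against 453 and 511 TPM (−4.57 ± 0.51, adjusted p = 0.00011). Lef1, Apcdd1 and Slc7a5 were the other 3. The call of Slc7a5 was lost without any one of the 4 libraries, at log2 fold changes from −4.24 to −3.75.

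Of 31 transcription factor genes of ECs 30 were tested, of which 4 were higher and 5 lower in WT AP than in WT CB ECs, and 24 of the 31 (77.4%) had an AP-alone region, with 60 in all. Erg and Ets1 had 7 each and Ets2 had 5. Of the 24 genes 14 were higher in GFP-positive than in GFP-negative WT AP cells. Between these fractions 15 of the 30 tested genes of the whole list were higher, against 5.46% of all genes tested. Against WT CB ECs 2 of the 24 were higher and 4 lower. Over all genes tested 2.25% were higher and 3.0% lower in that comparison. Mef2c, with 4 regions, was at 205 and 331 TPM in WT AP ECs and at 109 and 49.5 TPM in WT CB ECs (1.98 ± 0.27, adjusted p = 0.000521), and Nr2f2, the venous factor gene COUP-TFII, was 1.66 ± 0.43 (adjusted p = 0.0428). The hypoxia factor gene Epas1 (−2.10 ± 0.32, adjusted p = 0.00123) and the Notch target gene Hey1 (−3.16 ± 0.56, adjusted p = 0.00411) were lower, as were Gata2 and Tbx1. The call of Hey1 was lost in a fit of only the groups compared (−3.18). The call of Nr2f2 was lost without any one of the 4 libraries (1.35 to 1.98), as was that of Tbx1, which was at 0 in both WT AP libraries, and that of Gata2, at −1.0, was lost under all 9 alternatives tried.

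Of the 20 pituitary endocrine markers 5 (25.0%) had an AP-alone region nearby, with 8 regions, which is about the share of all protein-coding genes (23.4%). Pou1f1 and Chga were among them and no hormone gene was, although 9 of the 18 markers tested were higher in WT AP than in WT CB ECs. Of the 10 microglia and macrophage markers 5 had one (7 regions), of the 10 mural markers 5 (7 regions) and of the 10 neuronal and glial markers 3 (8 regions), whereas 7 of the 10 endothelial markers had one (16 regions). All 10 endothelial markers, with or without such a region, were higher in GFP-positive cells. The endothelial sialomucin gene Emcn was higher in WT AP than in WT CB ECs (1.97 ± 0.27, adjusted p = 0.000679) and the VEGF receptor gene Flt1 was lower (−2.22 ± 0.31, adjusted p = 0.000637). The part that endocrine cells in the GFP-positive sort have in the AP-alone peaks was not tested.

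Of the genes near regions with a peak in neither stabilized AP library, 3 of 852 tested (0.352%) passed the test between stabilized and WT AP ECs, all of them higher in the stabilized cells, against 0.441% of all genes and 0.535% of protein-coding genes. The share is no higher than that background, and the 3 are described for their values. The cytokine gene Il1b was at 0 and 0.0239 TPM in WT AP ECs and at 104 and 155 TPM in stabilized AP ECs (adjusted p = 2.67e-05). Myof was at 0 in both WT libraries and at 14.3 and 5.51 TPM in the stabilized ones (adjusted p = 1.25e-05), and Bmx at 0 in both and at 1.81 and 1.72 TPM (adjusted p = 0.0323, a call lost without either WT AP library and in a fit of only the groups compared). WT AP GFP-negative cells held 27.0 and 30.6 TPM of Il1b. The summed microglia and macrophage markers were 31.5 and 24 TPM in WT AP ECs and 181 and 253 TPM in stabilized AP ECs, and their part in these changes was not tested.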

How the data were processed

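ATAC-seq of nuclei from sorted GFP-positive cells (12 libraries) and RNA-seq of sorted cells (24 libraries) were analysed. The RiboTag libraries of the series were not used here. For ATAC-seq the authors aligned reads with Bowtie2 2.3.2 to GRCm38/mm10 and deposited, per library, the peaks of MACS2 2.1.1.20160309, with the fold enrichment (a ratio to the local background) and −log10 q of each peak. Peak lists hold no read counts, so the depth behind a peak is not given directly. Steps in the fold enrichments put the background at 3.58 and 5.83 sequenced tags in WT AP replicates 1 and 2. In the WT CB and WT PP libraries this was 3.83 to 5.04 tags. By library 20.3% to 39.6% of the values lay on such steps. The part of depth in the numbers of peaks was not tested. For RNA-seq the authors deposited estimated counts per transcript and TPM values from Salmon 0.10.2; the processing notes also list kallisto 0.44.0.

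Peaks were kept where both the fold enrichment and the −log10 q exceeded 2, entries of one region were merged within a library, and regions were shared at 1 bp of overlap. Overlapping peaks of both WT AP libraries were joined to their union. Start sites, exons and introns came from protein-coding genes of GENCODE M21, and sequence from RefSeq GRCm38.p6. A total of 26 motifs were searched by exact letters on both strands within 100 bp of the strongest summit.

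Estimated counts were summed to genes, rounded, and tested with edgeR 4.0.16 (TMM, filterByExpr, quasi-likelihood fit, Benjamini-Hochberg adjustment over all genes) in R 4.3.3, over the 12 GFP-positive libraries or, against GFP-negative cells, all 24. Transcripts without a gene (486) held 0.13% to 0.39% of the counts and were left out. On simulated data with 200 of 17127 genes changed 4-fold between WT AP and WT CB ECs, 17.5% of the changed genes were recovered, with 6 false calls. Alternatives were DESeq2 1.42.0, RLE normalization, no filter on low counts, only the groups compared, the replicate number as a block, leaving out each library, and other thresholds, overlaps, windows and distances. Python 3.11.15, pandas 2.3.3, numpy 2.4.6, scipy 1.17.1 and matplotlib 3.10.9 were used. The regions and all lists of genes and motifs were chosen with earlier results of these data known.

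Genes are named by rule: the 10 with the most AP-alone regions, the 10 with the largest smaller log2 fold change over both other WT tissues at 10 TPM or more, the 5 lower in both in the same way, those nearest to the 10 strongest regions, genes of the lists, and those called in stabilized AP ECs near a region with a peak in neither stabilized library. Factors of the motifs were named after their values were seen. Results of some genes are not reported here.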

Additional observations from a re-analysis of the deposited data

Results flagged for a closer look

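Bmx, a kinase gene with 1 AP-alone region, moved in opposite directions between tissues. In the AP it was at 0 TPM in both WT EC libraries and at 1.81 and 1.72 TPM in the stabilized ones, a mean difference of 1.77 TPM. In the CB it was at 16.3 and 7.80 TPM in the WT and at 3.86 and 7.70 TPM in the stabilized libraries, so that both stabilized values lay below both WT values, the nearest pair by a small margin. The difference between the tissues was not tested. This was 1 of 6 pairs of tissues compared for the 3 genes near AP-alone regions that passed the test in stabilized AP ECs.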

How the results depend on the processing

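Leaving out each WT ATAC-seq library in turn gave 10482 to 20284 AP-alone regions, of which 10.0% to 11.2% were promoters. With any ATAC-seq library left out, WT or stabilized, 48.1% to 82.7% had peaks in the stabilized AP, 8.94% to 17.7% in the stabilized CB and 14.5% to 44.5% in the stabilized PP. The upper end of each range is the share of the 10096 regions with a peak in a single stabilized library, the other being left out. With a fold enrichment over 4, 11.8% were promoters and 77.6% had peaks in both stabilized AP libraries. With a −log10 q over 5 these were 11.4% and 71.2%, and 14.1% and 22.4% had peaks in both stabilized CB and both stabilized PP libraries. Promoters within 2 kb held 13.1%. Genes higher in WT AP than WT CB ECs were 439 by DESeq2 and 412 with no filter on low counts, and fewer than in the main fit with any library left out. Lower genes were 120 with start sites within 20 kb, 361 with regions within 100 kb of the gene body, 290 by DESeq2 and 117 to 135 with a library left out. Against the WT PP, higher genes were 49 by gene body, 148 by DESeq2, 124 with no filter, 16 with only the groups compared and 12 to 118 with a library left out. Lower genes were 29 within 20 kb, 74 by gene body, 179 by DESeq2, 158 with no filter, 13 with only the groups compared and 24 to 116 with a library left out. In stabilized against WT AP ECs, higher genes were 11 within 20 kb, 41 by gene body, 106 by DESeq2, 87 with no filter, 10 with only the groups compared and 9 to 28 with a library left out. Lower genes were 1 by gene body, 19 by DESeq2, 25 with no filter and 8 with only the groups compared. Genes lower in GFP-positive cells were about 2.0e+02 within 20 kb, 721 by gene body, 565 by DESeq2 and 147 to 196 with a library left out. The 20 kb and gene-body settings change which genes have an AP-alone region. Their counts are given without the number of genes tested, so they do not show a change in share. The share of all genes tested moved too, also with a library left out. By DESeq2, 10.3% of the genes with AP-alone regions and 4.65% of all genes were higher than in the WT CB, 6.82% and 5.49% were lower, 3.48% and 2.70% were higher than in the WT PP, and 4.21% and 3.02% were lower. In stabilized against WT AP ECs the DESeq2 shares were near the background, at 2.49% and 2.31% higher and 0.447% and 0.447% lower, and in GFP-positive cells 12.3% and 11.7% were lower. With no filter on low counts 2.65% and 1.25% were higher than in the WT PP, and 1.86% and 1.37% were higher in stabilized AP ECs. The cause of these shifts was not tested.

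The replicate number as a block gave 28 higher and 2 lower genes in stabilized against WT AP ECs, against 17 and 0 without it, and changed no other total over the genes with AP-alone regions by over 1.5 times. Among smaller classes, the higher genes against the WT PP with 3 or 4 regions went from 6 to 10, and those in stabilized AP ECs with 1 region from 8 to 15. The 15 correlations of same-numbered deviations between GFP-positive groups ran from −0.017 to 0.029. They cannot show that same-numbered libraries came from different mice, and GFP-positive and GFP-negative libraries were not compared in this way. In the paper the lobes of pooled pituitaries were separated and both fractions were sorted. Libraries of a replicate may therefore share mice, and the main fits did not pair them. The share of higher genes by number of regions rose at every step under all 9 alternatives against the WT CB (14.8% to 25.4% with 5 or more regions) and against GFP-negative cells, under 6 of 9 against the WT PP, and under 0 of 9 in stabilized against WT AP ECs. Against the WT PP it was lost without either WT AP library and without WT PP replicate 2. Of 1016 refits of 113 comparisons of named genes, 923 kept direction and side of the threshold, 68 lost the call, 25 gained it and 0 reversed. The 2 libraries per group, pooled mice and peak lists without counts limit all of these comparisons.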

Other observations

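Microglial marker genes other than Mrc1 with an AP-alone region were Csf1r, P2ry12, Aif1 and Tyrobp, whose products are a growth factor receptor, a purine receptor, a calcium-binding protein and a signalling adaptor. Their RNA was at 0 to 3.82 TPM in WT AP ECs: Csf1r was at 0.302 and 0.00573 TPM, P2ry12 at 3.82 and 0 TPM, Aif1 at 0 and 2.55 TPM and Tyrobp at 0.157 and 0 TPM. In WT AP GFP-negative cells Csf1r was at 5.10 and 6.15 TPM, P2ry12 at 0.105 and 0 TPM, Aif1 at 0 and 10.3 TPM and Tyrobp at 0 and 11.2 TPM, so that the values of Csf1r alone did not overlap between the fractions. The region near Csf1r was at a fold enrichment of 7.35 and 8.02 in the WT AP libraries, 8.92 and 9.09 in the stabilized AP and 5.22 and 7.01 in the stabilized PP. The region near Tyrobp was at 3.86 and 9.40, 9.46 and 10.9, and 5.56 and 7.89 in the same order. Both stabilized PP libraries also had a peak at the regions of P2ry12 (4.34 and 5.50) and Aif1 (5.21 and 4.44), but had none at any of the 3 regions of Mrc1. Of all AP-alone regions 21.5% had a peak in both. The summed microglia and macrophage markers were 296 and 239 TPM in stabilized PP ECs and 11.3 and 1.12 TPM in WT PP ECs. The part of such cells in these peaks was not tested.

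AP-alone regions lay a median of 28428.5 bp from the nearest other AP-alone region, and 41.4% had one within 20 kb. The nearest AP region shared with other tissues was 17293.5 bp away at the median. Peaks private to WT AP replicate 1 or replicate 2 had a median fold enrichment of 3.67 and 3.66, and 15.6% and 25.7% of them had a peak in both stabilized AP libraries, against 70.3% of the AP-alone regions.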
